A study of Mus musculus with 4 samples.

Results

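The genes described here are the WNT ligands, their receptors and their secreted antagonists, together with a few partners, in male mouse tail tip fibroblasts with and without an autosomal *Xist* transgene. They were chosen by gene symbol: every *Wnt*, *Fzd*, *Sfrp* and *Dkk* gene of the expression matrix, plus *Frzb*, *Wif1*, *Lrp5*, *Lrp6*, *Ror1*, *Ror2*, *Rspo1*, *Rspo2*, *Rspo3*, *Porcn*, *Axin2*, *Lef1*, *Tcf7* and *Nkd1*. This gave 51 of the 23924 genes listed. Genes were matched by name and not by measured value, but the members were chosen with earlier results of these data known.

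The WT cells came from +/+ mice and the TG cells from Tg2087/+ littermates of the C57BL/6J-TgBAC8-2087 line, whose transgene places a stretch of the X-inactivation center with *Xist* in an autosome. Both genotypes were cultured as tail tip fibroblasts and immortalized by SV40 large T. They are tetraploid, and the values describe transformed cells in culture and not skin. RNA-seq of polyadenylated RNA was made from 2 WT and 2 TG libraries, and levels are in FPKM, the fragments of a gene per kilobase of its length scaled to library size. The age of the mice is not stated, nor is it stated whether both libraries of a genotype trace to different animals, so the p-values measure only the spread between these libraries, which may be technical.

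WNT proteins are secreted, lipid-modified signals that bind Frizzled receptors at the cell surface. With the co-receptors LRP5 or LRP6 they stabilize beta-catenin, which acts in the nucleus with factors of the TCF/LEF family, while other WNTs act through ROR receptors or planar polarity proteins without beta-catenin. SFRP, FRZB and WIF1 proteins capture the ligands, DKK proteins act on the co-receptors, R-spondins keep receptors at the surface, and in skin this balance is known for its part in hair follicles and in dermal fibroblasts.

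Depth, worked out from the whole-number ratios between FPKM values, was between 9465712 and 14639946 reads per library, with WT 2 sequenced 1.55 times as deeply as WT 1. *Xist*, which the transgene carries, was listed at 0 and 0.108 FPKM in WT 1 and WT 2 and at 2.31 and 2.28 FPKM in TG 1 and TG 2, so the libraries match their labels. The fibroblast label was met by *Vim* (2147 to 2547 FPKM over the 4 libraries), *Col1a1*, *Col1a2*, *Fn1* and *Thy1*, whereas *Lum* was listed at 0 in all 4, *Dcn* reached at most 0.878 FPKM and *Pdgfra* at most 1.13 FPKM. Of 32 markers of 7 other cell types (keratinocyte, endothelial, immune, melanocyte, Schwann, skeletal muscle and chondrocyte), 10 were at 0 in all 4 libraries, among them *Krt5*, *Krt14*, *Ptprc*, *Sox10* and *Myod1*, and 28 stayed under 0.5 FPKM in each library, with *Cd68*, *Sox9*, *Acan* and *Epcam* as the exceptions. The summed level was at most 0.718 FPKM in any library for the keratinocyte, endothelial, melanocyte, Schwann and skeletal muscle lists, and the Schwann list differed with the genotype within that range (0.0545 and 0.0714 FPKM in WT, 0.684 and 0.689 FPKM in TG). The immune list was at 8.95 and 12.3 FPKM in WT against 5.21 and 11.4 FPKM in TG, nearly all of it *Cd68*. The summed level of 4 smooth muscle markers was 8651 and 8913 FPKM in WT against 4058 and 4742 FPKM in TG. *Acta2*, *Tagln* and *Cnn1* made up nearly all of that sum, while *Myh11* reached at most 0.376 FPKM. The summed level of 4 chondrocyte markers was 2.47 and 2.99 FPKM in WT against 7.65 and 10.3 FPKM in TG, most of it *Sox9*. The summed fibroblast markers were 4910 and 4624 FPKM in WT against 3944 and 4223 FPKM in TG. The smooth muscle, chondrocyte, Schwann and fibroblast sums differed between the genotypes without overlap, and their part in the results below was not tested. In bulk libraries, fewer cells that express a gene and less RNA per cell cannot be told apart.

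Of the 51 genes, 11 were listed at 0 in all 4 libraries and 14 were read in at least 1 library but had a mean under 0.5 FPKM, the level required for testing. The other 26 were tested, among 11524 genes in all, by limma on log2(FPKM + 0.5) with Benjamini-Hochberg adjustment. Genes were called where the adjusted p was under 0.01 and TG and WT differed by 1 or more on the log2 scale. Under this rule 1 of the 26 was called up in TG (*Wnt10a*), where 0.607% of all tested genes were, and none was called down, where 0.469% of all tested genes were. Without adjustment, 7 of the 26 were higher and 3 lower in TG at p under 0.05, where 12.7% and 6.88% of all tested genes were, and the voom method of limma, run on recovered reads, called 1 up (*Dkk2*) and 1 down (*Fzd3*), against 1.08% and 1.3% of all tested genes. At an adjusted p under 0.05 alone, limma had 4 of the 26 higher in TG (*Wnt10a*, *Dkk2*, *Sfrp2* and *Rspo2*), or 15.4%, against 2.59% of all tested genes, and none lower, against 1.54%. At the same threshold voom had the same 4 genes higher, against 3.47% of all tested genes, and 3 lower (*Fzd3*, *Dkk3* and *Lef1*), against 4.38%. The median log2 fold change of the 26 was 0.25, with the middle 50% between -0.43 and 0.57, beside a median of 0.07 and a middle 50% between -0.18 and 0.34 over all tested genes. *Wnt10a* and *Wnt4* met the required mean only through their TG libraries, so these counts are a description and not evidence for the group.

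Both TG libraries lay above both WT libraries for 12 of the 26 genes (46.2%), against 30.2% of all tested genes, and below them for 9 (34.6%), against 20.3%. The groups overlapped for the remaining 5. With 2 libraries against 2, an exact permutation test of a single gene cannot give a p below 0.333. No tested member changed the sign of its difference under upper-quartile scaling or quantile normalization.

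**Figure D1:**
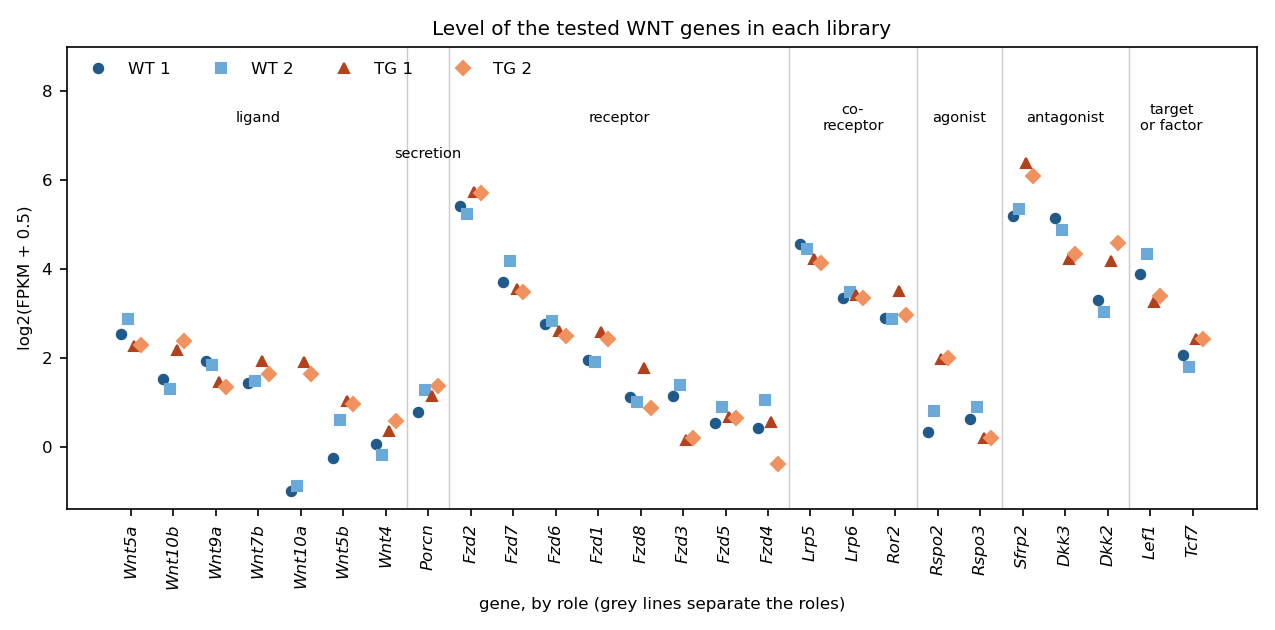
Level of each of the 26 tested WNT genes, as log2(FPKM + 0.5), in the 4 libraries, with genes grouped by role along the horizontal axis and ordered by mean FPKM within a role. *Fzd2* and *Sfrp2* stand highest, and *Wnt10a* is the gene whose WT points (0 and 0.0377 FPKM) lie farthest below its TG points (3.24 and 2.59 FPKM).

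*Wnt10a*, a ligand of the beta-catenin branch known for its part in hair follicles, teeth and skin, was the member that differed most. In GRCm38 coordinates (mm10) it lies on chromosome 1, from 74792019 to 74804176. The gene was listed at 0 and 0.0377 FPKM in WT 1 and WT 2 and at 3.24 and 2.59 FPKM in TG 1 and TG 2, from 0, 1, 70 and 52 reads. It was thus barely read in WT and plainly read in both TG libraries, with no overlap. Per total reads of the libraries, 122 TG reads against 1 WT read are a ratio of 128 (exact 95% interval, 22.5 to 5094, for counting error alone). The value fitted by limma, on the log2 scale, was 2.71 (standard error 0.39, 95% interval from 1.85 to 3.58, adjusted p = 0.00492). That size depends on the pseudocount, because the WT level is near 0, giving 1.94 at a pseudocount of 1 and 4.68 at 0.1. Over 13 alternative fits the adjusted p ran from 0.0045 to 0.0655, and the call was lost in 7 of them. The adjusted p was 0.052 without WT 1, 0.0655 without WT 2 and 0.014 without TG 1, where the lone library of a genotype was assumed to vary like the others.

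*Wnt10b*, the closest relative of *Wnt10a* and likewise a ligand of the beta-catenin branch, was at 2.39 and 1.97 FPKM in WT against 4.04 and 4.70 FPKM in TG. Its TG libraries lay above its WT libraries with a ratio of means of 2.00, but it did not pass the test (log2 fold change 0.86, standard error 0.27, adjusted p = 0.113 from limma). *Wnt5a*, the typical ligand of the branch without beta-catenin and the highest ligand on average, was at 5.29 and 6.77 FPKM in WT against 4.28 and 4.41 FPKM in TG. *Wnt9a*, another of the higher ligands, was at 3.30 and 3.06 FPKM in WT against 2.25 and 2.03 FPKM in TG. For both of these genes TG lay below WT without overlap, with log2 fold changes of -0.42 (95% interval from -0.96 to 0.12) and -0.48 (95% interval from -1.10 to 0.14) that did not pass. *Wnt7b*, *Wnt5b* and *Wnt4* completed the tested ligands at mean levels between 0.67 and 2.61 FPKM, each with both TG libraries higher and adjusted p-values from 0.305 to 0.589. The WT libraries differed from each other for *Wnt5b*, which was at 0.337 FPKM in WT 1 and 1.01 FPKM in WT 2.

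The ligands also differed in their proportions. Summed over all 19 ligands, the level was 15.2 and 15.9 FPKM in WT against 20 and 19.5 FPKM in TG. *Wnt10a* and *Wnt10b* together made up 15.7% and 12.6% of that sum in WT and 36.5% and 37.5% in TG. *Wnt5a* and *Wnt9a* together made up 56.5% and 61.9% in WT and 32.7% and 33.0% in TG. The WT pool was thus mostly *Wnt5a* and *Wnt9a*, and the TG pool held about equal parts of these and of the *Wnt10* pair. The pairs were formed after the values were seen, and the shares carry no test.

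**Figure D2:**
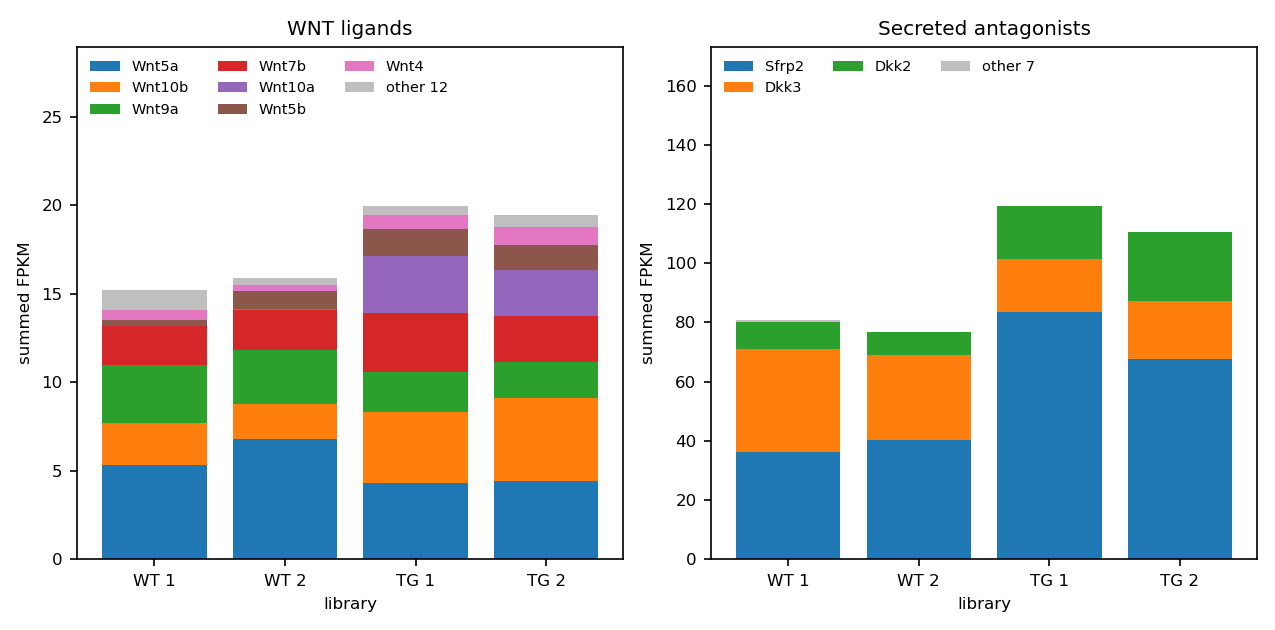
Summed FPKM of the 19 WNT ligands (left) and of the 10 secreted antagonists (right) in each library, stacked by gene, with the genes not tested shown in grey. In the TG bars the ligand sum is 20 and 19.5 FPKM and contains *Wnt10a*, and *Sfrp2* takes up 69.9% and 61.0% of the antagonist sum.

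The remaining 12 ligands were low. *Wnt1*, *Wnt3a*, *Wnt6*, *Wnt8a*, *Wnt8b* and *Wnt9b* were listed at 0 in all 4 libraries. *Wnt2* was read in TG only, at 0.256 and 0.184 FPKM. A count of 0 allows up to 3 reads in a library. *Wnt11* and *Wnt2b* split the WT libraries, with 12 and 23 reads in WT 1 against 1 and 9 reads in the deeper WT 2, so a difference between the genotypes was not detectable for them. *Wnt3*, *Wnt7a* and *Wnt16* had at most 4 reads in any library. *Porcn*, the enzyme that attaches the lipid to WNT proteins, was at 1.21, 1.91, 1.70 and 2.08 FPKM in WT 1, WT 2, TG 1 and TG 2, with overlapping groups (log2 fold change 0.23, 95% interval from -0.52 to 0.98).

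The study associates the transgene with chromosome 1, from down-regulated genes clustered there and then from FISH. Among the 51 genes, 4 lie on this chromosome: *Fzd7* (59482147 to 59486955), *Fzd5* (64730558 to 64737750), *Wnt6* (74754342 to 74785322) and *Wnt10a*. *Wnt6* ends 6.70 kb before *Wnt10a* begins and was listed at 0 in all 4 libraries, where 3 reads would be a level between 0.107 and 0.165 FPKM. *Wnt10b* lies 11.7 kb from *Wnt1* on chromosome 15 and *Wnt9a* lies 16.1 kb from *Wnt3a* on chromosome 11, and *Wnt1* and *Wnt3a* were listed at 0 in all 4 libraries. *Wnt9b* and *Wnt3* overlap by 1098 bases, with *Wnt9b* listed at 0 and *Wnt3* at no more than 0.0283 FPKM.

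Within 1 Mb of *Wnt10a*, a window chosen after its values were seen, 58 other genes were listed and 33 were tested. Of these, 17 were higher and 16 lower in TG, with a median log2 fold change of 0.04. None was called up by limma or by voom, where 0.607% and 1.08% of all tested genes were, shares at which few calls would fall among 33 genes. At an unadjusted p under 0.05, 4 were higher by limma, where 12.7% of all tested genes were. *Nhej1*, a DNA repair gene, had the highest value at 0.60. *Tns1*, which encodes a focal adhesion protein and ends 667 kb before *Wnt10a*, was the only one called down (log2 fold change -1.45, adjusted p = 0.00221 from limma). *Obsl1* also had an adjusted p under 0.05 (0.0452, log2 fold change -0.86). The rise of *Wnt10a* was therefore larger than the difference of any tested gene in this window. The study also reports *Tns1* as repressed, in a cluster with *Igfbp2* and *Igfbp5*. Those genes, which it reports as more reduced than *Tns1*, lie outside the window.

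**Figure D3:**
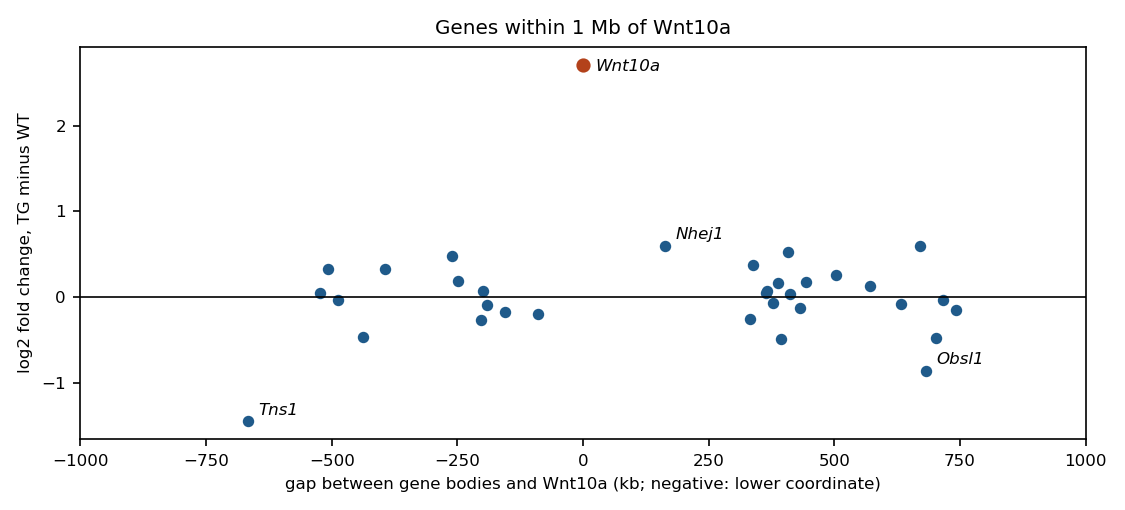
Log2 fold change between TG and WT (vertical axis) of *Wnt10a* (red) and of the 33 tested genes within 1 Mb (blue) by the gap in kb between gene bodies, negative toward lower coordinates. The neighbours lie between -1.45 (*Tns1*) and 0.60 (*Nhej1*), below *Wnt10a* at 2.71.

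The Frizzled receptors were led by *Fzd2*, which binds ligands of both branches, at 42.2 and 37.3 FPKM in WT against 52.6 and 52.1 FPKM in TG. It made up between 52.2% and 68.1% of the summed FPKM of the 10 receptors. Its TG libraries lay above its WT libraries, yet the log2 difference of 0.39 (95% interval from 0.01 to 0.78, adjusted p = 0.25 from limma) did not pass the adjusted test. *Fzd7* on chromosome 1 was second, at 12.6 and 17.6 FPKM in WT against 11.2 and 10.6 FPKM in TG (log2 fold change -0.44, 95% interval from -0.92 to 0.05). *Fzd6* followed at 6.25 and 6.64 FPKM in WT against 5.55 and 5.14 FPKM in TG (log2 fold change -0.25, 95% interval from -0.75 to 0.25). Both lay lower in TG without overlap and without passing the test. *Fzd5*, also on chromosome 1, was at 0.953 and 1.36 FPKM in WT against 1.08 and 1.07 FPKM in TG, so its TG values lay between the WT values.

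*Fzd3*, a receptor known from axon guidance and planar polarity, was the receptor with the largest difference. It lies on chromosome 14 from 65192441 to 65262463 and was at 1.69 and 2.10 FPKM in WT against 0.606 and 0.639 FPKM in TG. The TG mean was 0.328 of the WT mean, and the groups did not overlap. By limma the difference on the log2 scale was -1.09 (standard error 0.36, adjusted p = 0.128), which did not pass. That size also depends on the pseudocount, giving -0.83 at a pseudocount of 1 and -1.46 at 0.1, and it passed at neither. On the recovered reads, which numbered 201 and 388 in WT and 91 and 89 in TG, voom gave -1.68 with an adjusted p of 0.00095 and called the gene down, and over the 13 alternatives the adjusted p ran from 0.00095 to 0.469.

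Of the remaining receptors, *Fzd1* had both TG libraries higher (3.35 and 3.26 FPKM in WT, 5.49 and 4.89 in TG, adjusted p = 0.227 from limma). For *Fzd4* and *Fzd8* the TG libraries differed from each other by more than the genotypes did: *Fzd4* was at 0.972 FPKM in TG 1 and 0.256 in TG 2, and *Fzd8* at 2.89 and 1.33. *Fzd9* stayed under 0.5 FPKM, and *Fzd10* was listed at 0.

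*Lrp5* and *Lrp6*, the co-receptors of the beta-catenin branch, were well read. *Lrp5* was at 23.1 and 21.2 FPKM in WT against 18.1 and 17.0 FPKM in TG (log2 fold change -0.33, 95% interval from -0.74 to 0.09). *Lrp6* was at 9.66 and 10.7 FPKM in WT against 10.1 and 9.63 FPKM in TG, with overlapping groups (log2 fold change -0.04, 95% interval from -0.50 to 0.41). *Ror2*, a receptor kinase for *Wnt5a*, was at 6.97 and 6.78 FPKM in WT against 10.9 and 7.30 FPKM in TG, and neither it nor the LRP genes passed the test (adjusted p = 0.376 for *Lrp5*, 0.935 for *Lrp6* and 0.47 for *Ror2*, from limma). *Ror1* had 5 reads in WT 2 and none elsewhere.

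*Rspo2*, an R-spondin that strengthens WNT signals by protecting receptors from removal, was higher in TG at an adjusted p under 0.05. It lies on chromosome 15 from 43020788 to 43171594 and was at 0.756 and 1.25 FPKM in WT against 3.45 and 3.49 FPKM in TG, from 23, 59, 132 and 124 reads. The TG mean was 3.45 times the WT mean, without overlap (log2 fold change 1.42, standard error 0.32, adjusted p = 0.0357 from limma). Over the 13 alternatives the adjusted p ran from 0.022 to 0.154, and it was under 0.05 in 6 of them. *Rspo3*, with the same role, differed the other way, at 1.03 and 1.34 FPKM in WT against 0.635 and 0.644 FPKM in TG, but did not pass (log2 fold change -0.56, 95% interval from -1.41 to 0.29). *Rspo1* was read in WT 1 only, at 0.439 FPKM from 7 reads.

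The secreted antagonists came down to 3 genes, *Sfrp2*, *Dkk3* and *Dkk2*, and 2 of them were higher in TG at an adjusted p under 0.05. *Sfrp2*, a secreted protein with a Frizzled-like domain that binds WNTs and is abundant in dermal fibroblasts, lies on chromosome 3 from 83765750 to 83774314. It was at 36.1 and 40.2 FPKM in WT against 83.4 and 67.5 FPKM in TG, the highest mean of any member over the 4 libraries. *Dkk2*, a Dickkopf protein that binds LRP5 and LRP6, lies on chromosome 3 from 132085266 to 132180304 and was at 9.36 and 7.70 FPKM in WT against 17.7 and 23.4 FPKM in TG. Neither gene's groups overlapped.

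The TG mean was 1.98 times the WT mean for *Sfrp2* (log2 fold change 0.97, standard error 0.19, adjusted p = 0.0174 from limma) and 2.41 times for *Dkk2* (log2 fold change 1.21, standard error 0.22, adjusted p = 0.0141). *Dkk2* was called up by voom, with the same log2 fold change of 1.21 and an adjusted p of 0.00069. Over the 13 alternatives the adjusted p ran from 0.002 to 0.116 for *Sfrp2* and from 0.00069 to 0.168 for *Dkk2*, and for each gene it was under 0.05 in 7. It was 0.05 or more with all genes above 0, without the variance trend and with the replicate block, from 0.062 to 0.098, and with some single libraries left out. Without WT 1, the adjusted p was 0.097 for *Sfrp2* and 0.068 for *Dkk2*, without WT 2 it was 0.12 and 0.17, and it was 0.11 for *Sfrp2* without TG 1 and 0.078 for *Dkk2* without TG 2. The log2 fold change stayed between 0.82 and 1.12 for *Sfrp2* and between 1.02 and 1.41 for *Dkk2* with a library left out. *Rspo2* was above 0.05 with any library left out, from 0.092 to 0.15.

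*Dkk3*, a Dickkopf relative that does not act on the LRP co-receptors in the usual way, was lower in both TG libraries, at 34.8 and 28.9 FPKM in WT against 18.1 and 19.8 FPKM in TG. It did not pass, with a log2 difference of -0.73 from limma (standard error 0.19, adjusted p = 0.062, and from 0.0082 to 0.227 over the alternatives). *Sfrp2* was 1.04 and 1.39 times *Dkk3* in WT and 4.60 and 3.41 times in TG, as a ratio of FPKM within a library. *Dkk3* was 43.1% and 37.6% of the summed antagonist FPKM in WT against 15.2% and 17.9% in TG, while the sum itself was 80.7 and 76.9 FPKM in WT against 119 and 111 FPKM in TG. *Dkk1*, *Sfrp4*, *Sfrp5* and *Frzb* were listed at 0 in all 4 libraries, and *Sfrp1* and *Dkk4* had at most 2 reads in any library. *Wif1* had 9 reads in WT 1 and at most 2 in the others.

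The sequences before the annotated starts of *Dkk2* and *Sfrp2* are shown because they are the antagonists that stood higher in TG. They were taken from the RefSeq promoter windows on GRCm38.p6, which matched 34 of the 51 genes with 41 windows, and both lie on the plus strand of chromosome 3. *Wnt10a*, *Rspo2*, *Fzd3* and *Dkk3* were among the genes without a window, so their promoters were not searched. The *Dkk2* piece is chr3:132085172-132085291, the 120 bases that end just before the start. The *Sfrp2* piece is chr3:83766271-83766300, from 50 to 21 bases before the start. Capitals mark the letters ATAAAA, letters found in many TATA elements.
Dkk2: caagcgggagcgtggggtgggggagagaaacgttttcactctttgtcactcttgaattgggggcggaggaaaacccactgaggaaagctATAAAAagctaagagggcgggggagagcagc
Sfrp2: cagatttgcATAAAAaaggccaagaaaact

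ATAAAA begins 31 bases before the *Dkk2* start and 41 bases before the *Sfrp2* start, in *Dkk2* as part of TATAAAA, so that it overlaps a match to TATAAA. The RefSeq gene records begin 26 bases earlier than this start for *Dkk2* and 571 bases earlier for *Sfrp2*, so other starts are annotated. These letters were picked after the sequences were read. On either strand of the 250 bases before the start, ATAAAA was found in 7 of the 41 WNT windows (17.1%) and in 17.0% of all 32851 windows. CTTTGA, a form of the TCF/LEF core, was found in 7 of the 41 (17.1%) against 13.8% of all windows: those of *Dkk1*, *Frzb*, *Fzd1*, *Lef1*, *Ror1*, *Wnt11* and *Wnt5b*. Neither the *Dkk2* nor the *Sfrp2* window held CTTTGA, but other forms of the core, such as the CTTTGT in the *Dkk2* piece above, were not counted. The AP-1 letters TGANTCA were found in 2 of the 41 (*Ror2* and *Wnt5b*, 4.88%) against 6.75% of all windows.

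**Figure D4:**
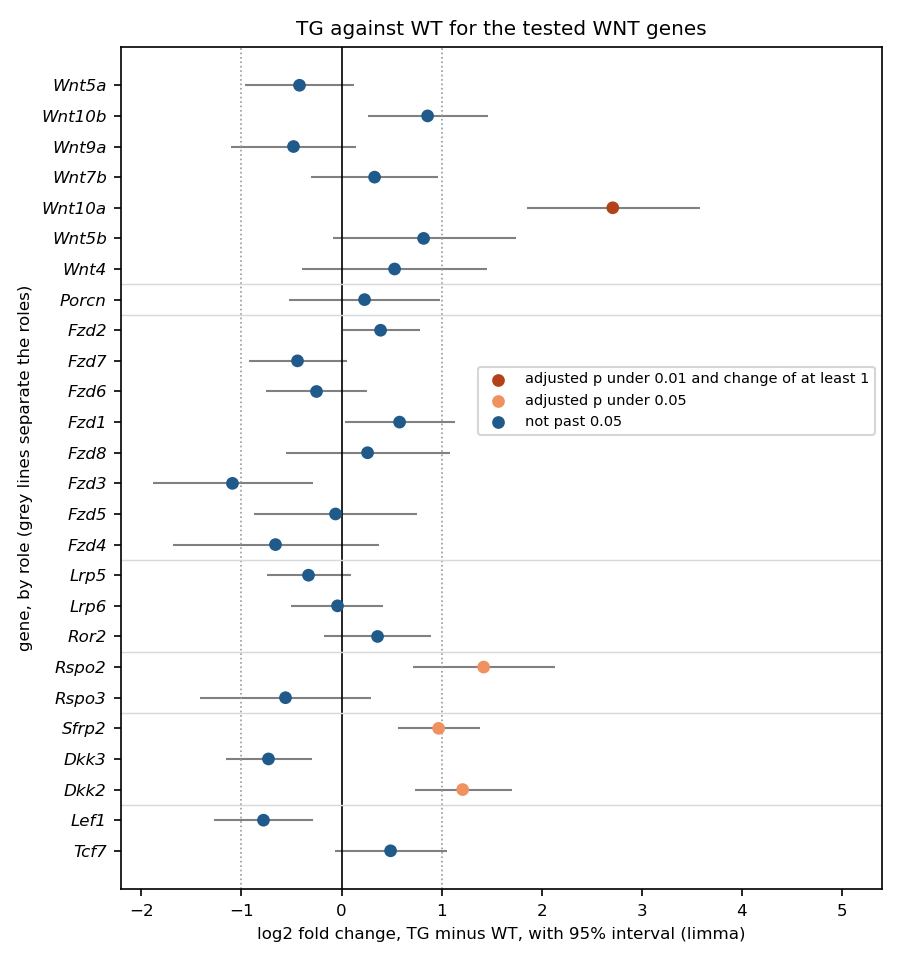
Log2 fold change between TG and WT with its 95% interval from limma (horizontal axis) for the 26 tested WNT genes, grouped by role, with dotted lines at a change of 1 in either direction. *Wnt10a* (2.71) is the gene called, *Rspo2*, *Dkk2* and *Sfrp2* (0.97 to 1.42) pass an adjusted p of 0.05 only, and *Fzd3* (-1.09) is the lowest value.

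*Lef1* and *Tcf7*, the nuclear factors that act with beta-catenin and are themselves raised by WNT signals in many tissues, differed in opposite directions. *Lef1* was at 14.2 and 19.7 FPKM in WT against 9.01 and 10.0 FPKM in TG (log2 fold change -0.78, standard error 0.22, adjusted p = 0.0797 from limma, and from 0.01 with voom to 0.424 over the alternatives). *Tcf7* was at 3.67 and 2.96 FPKM in WT against 4.83 and 4.82 FPKM in TG (log2 fold change 0.49, standard error 0.25, adjusted p = 0.325). Neither pair of groups overlapped and neither gene passed limma's test. *Axin2*, the standard readout of the beta-catenin branch, was at 0.334, 0.382, 0.367 and 0.242 FPKM, too low to test, and *Nkd1* had 3 reads in TG 1 and none elsewhere.

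The rest of the pathway was described through 81 genes in 4 lists, of which 59 were tested. Between TG and WT, 1 of the 59 was called up by limma (*Fosl1*) and none was called down, against 0.607% and 0.469% of all tested genes. Without adjustment, 9 were higher and 13 lower at p under 0.05, against 12.7% and 6.88%, and voom called 3 down, which were *Dact1*, *Daam2* and *Tcf7l2*, against 1.3%. At an adjusted p under 0.05, 1 was higher and 4 were lower in TG by limma, against 2.59% and 1.54%, and 3 were higher and 9 lower by voom, against 3.47% and 4.38%. The median log2 fold change of the 59 was -0.10 by limma.

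Reception and turnover genes, such as the WNT carrier *Wls* and the receptors *Ryk* and *Ptk7*, had 11 of 20 tested and a median of -0.17. *Gpc4*, a cell surface proteoglycan that holds WNTs, was lower at an adjusted p under 0.05 (35.0 and 30.3 FPKM in WT, 19.7 and 16.3 in TG, adjusted p = 0.038 from limma). Among the cytoplasmic and nuclear genes, 30 of 32 were tested with a median of -0.10. *Dact1*, a scaffold that binds Dishevelled, was at 7.25 and 9.19 FPKM in WT against 2.11 and 2.93 FPKM in TG (log2 fold change -1.53, adjusted p = 0.011). No other gene of that list passed 0.05 by limma, while by voom *Tcf7l2*, *Bcl9l*, *Bcl9* and *Tcf7l1* were also lower (adjusted p from 0.0011 to 0.025). *Ctnnb1*, encoding beta-catenin, had a log2 fold change of 0.04 by limma (adjusted p = 0.94).

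Planar polarity genes had 8 of 12 tested, with a median of -0.23. *Daam2*, a formin that links Dishevelled to the cytoskeleton, was at 4.73 and 6.33 FPKM in WT against 1.29 and 2.41 FPKM in TG (log2 fold change -1.39, adjusted p = 0.036 from limma). By voom *Vangl2* was also lower (log2 fold change -0.92, adjusted p = 0.014). Genes known as WNT targets in other tissues had 10 of 17 tested and a median of 0.55, with negative values for *Myc* and *Ccn4* only. *Fosl1*, an AP-1 transcription factor subunit that many growth signals also raise, rose from 24.9 and 28.1 FPKM in WT to 60.9 and 71.3 FPKM in TG (log2 fold change 1.30, adjusted p = 0.0044), with an adjusted p from 0.00016 to 0.0549 over the alternatives. *Ccn4*, a matricellular protein gene first described as induced by WNT1, was lower, at 120 and 142 FPKM in WT against 64.9 and 76.8 FPKM in TG (log2 fold change -0.89, adjusted p = 0.025). By voom *Ccnd1* and *Cd44* were also higher (log2 fold changes 0.65 and 0.58, adjusted p = 0.015 and 0.025).

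**Figure D5:**
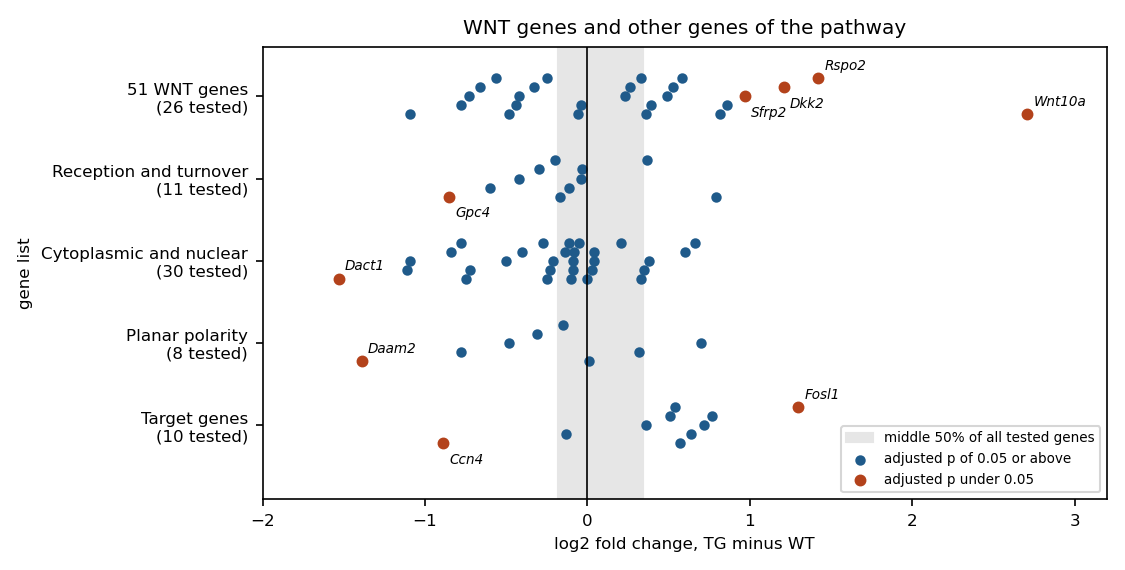
Log2 fold change between TG and WT (horizontal axis) of the tested genes of the 51 WNT genes and of 4 lists of other pathway genes, with genes at an adjusted p under 0.05 in red and named. The grey band spans the middle 50% of all 11524 tested genes, from -0.18 to 0.34. Most points of each list lie within 1 of 0, and the red points of the 51 WNT genes, by limma, are all on the higher side.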

How the data were processed

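RNA-seq was analysed for 2 WT and 2 TG libraries. Per the methods, the authors mapped the read pairs to mm10 using Rsubread, made a count table by gene and turned it into FPKM. The deposited matrix holds FPKM with a column for each library. DESeq is also named in the submitters' processing notes. Whether counting used the strand is not given in the sources used here, so antisense reads cannot be told apart.

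Genotypes were taken from the labels. TG and WT were compared with limma 3.58.1 in R 4.3.3 (lmFit, then eBayes with the trend option) on log2(FPKM + 0.5). Genes whose FPKM averaged 0.5 or more were tested, and p-values were adjusted over all of them by the Benjamini-Hochberg method. The thresholds, 0.01 for the adjusted p and 1 for the size of the log2 fold change, follow the study. Whole reads were recovered from the FPKM ratios for 15527 of 15530 genes above 0 (relative tolerance 3e-08 or 6e-07 by digits given), of which 707 took a common factor from their exonic length. Reads of *Fzd4*, *Wnt5a*, *Fzd8* and *Wnt2* are known only up to such a factor. Between 98.67% and 98.85% of each library's total was recovered on genes. The reads fed the voom alternative, the read counts given for single genes and the *Wnt10a* ratio, and not the limma test. Both tests were tested on simulated data. Gene positions came from the RefSeq annotation of GRCm38.p6.

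Members named with all their values were those with an adjusted p under 0.05, those without overlap and a change of at least 1, the 3 highest in each role and those on chromosome 1. Others were chosen after their values were seen, and members and lists were chosen with earlier results of these data known. Alternatives changed the pseudocount (1 or 0.1), the filter (any gene above 0, or a mean of 1), the variance trend (none), the scaling (upper quartile or quantiles), the model (a replicate block, or voom), the libraries (each left out) and the thresholds (0.05 for the adjusted p, or 0.5 for the change).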

Additional observations from a re-analysis of the deposited data

How the results depend on the processing

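With 2 libraries per genotype the spread rests on few values, and at this depth 25 of the 51 genes were at 0 or too low to test. The count of WNT genes called up (1) fell to 0 with all genes above 0, with a pseudocount of 0.1 and with the replicate block, lay between 0 and 1 with a library left out (0 without TG 1, WT 1 or WT 2), and was 3 at an adjusted p under 0.05 with the change of at least 1 kept. With voom the count called up stayed at 1, but the gene called was *Dkk2* and not *Wnt10a*. The count called down (0) was 1 with voom. Over all tested genes, 54 were called down and 70 up. These counts became 1 and 0 with all genes above 0, 6 and 3 without a variance trend, 150 and 124 with voom, 121 and 229 at an adjusted p under 0.05 with the change of at least 1 kept, and between 1 and 47 and between 0 and 66 with a library left out. Of the pathway lists, 1 gene was called up, and 0 with all genes above 0, without a variance trend and with the replicate block, and between 0 and 1 with a library left out. None was called down, but 3 were with voom and 2 at an adjusted p under 0.05 with the change of at least 1 kept. The median log2 fold change of the tested WNT genes, 0.247, was -0.001 with all genes above 0, which lets in genes read a few times, and ran from 0.007 to 0.258 with a library left out. Of the 26 tested WNT genes, 4 turned their direction with a library left out: *Porcn* ran from -0.02 (without WT 1) to 0.48, *Fzd5* from -0.24 to 0.12 (without WT 2), *Lrp6* from -0.12 to 0.03 (without WT 2) and *Fzd8* from -0.18 (without TG 1) to 0.71. The other 22 kept their direction in each fit run. Deviations of libraries with the same number did not go together (r = -0.0276 over 11524 genes). A correlation over all genes cannot exclude a pairing that affects few of them. The replicate block called 8 genes down and 12 up in all and no WNT gene. The causes of the other shifts were not tested.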
